A study of Mus musculus with 16 samples.

Results

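LSK cells sorted from bone marrow 10 days after 5-fluorouracil (5-FU) were compared between mice with a mutated Gata2 enhancer and wild-type mice. The comparison rests on 6 of the 16 RNA sequencing libraries of the series, chosen by their titles: 3 libraries labelled Gata2 +9.5(Ets)-/- with 5-FU and 3 labelled WT with 5-FU. The mutant mice are homozygous for a C>T transition in an Ets motif of the +9.5 enhancer, and no other allele, transgene or Cre is named. Both groups are on a C57BL/6J background, were 8 to 14 weeks old and received 250 mg/kg 5-FU. The other 10 libraries, 5 of each genotype, come from mice given PBS and entered the fit as a shared estimate of the spread and as the reference for the interaction. Each library was made from 3000 to 10000 cells negative for B220, CD3, CD4, CD5 and CD8 and positive for Sca1 and c-Kit. The labels do not say whether replicates are separate mice or pools, so each p measures the spread between these libraries only.

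GATA2 is a zinc-finger transcription factor that blood stem cells need for their formation and upkeep. Its +9.5 element is an enhancer inside a Gata2 intron where GATA and Ets factors bind close to each other. The LSK gate holds hematopoietic stem cells and multipotent progenitors, among them the lymphoid-primed progenitors that carry the cytokine receptor FLT3. 5-FU kills dividing blood cells, after which stem cells enter the cycle and rebuild the marrow. The comparison asks how LSK cells differ during regrowth when this Ets motif is altered.

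The 6 libraries held 20169355 to 28883365 expected counts and between 19107 and 20119 genes above 0. Levels are given in CPM (counts scaled to library size with TMM factors), always for replicates 1, 2 and 3 in that order. Differences are log2 values, mutant minus wild type, with their standard error (SE), and a gene passed when its adjusted p was under 0.05. A floor of 3 counts came to 0.0798 to 0.118 CPM per library, and it covers counting error only. Immunoglobulin genes took 0.21, 0.0392 and 0.332% of the counts in wild type and 26.6, 16.9 and 5.69% in the mutant. In log2 CPM over the genes tested, wild-type libraries correlated with each other at 0.968 to 0.983 and mutant libraries at 0.930 to 0.947, so the mutant libraries differed more among themselves. The first principal component (56.4% of the variance) separated the genotypes and the second (16.2%) spread the mutant libraries. Sample codes in the labels begin with a 0 in all 3 mutant libraries and in none of the wild-type ones. What the codes stand for is not given, and their writing and genotype cannot be told apart after 5-FU.

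Gata2 itself (chromosome 6, 88193891 to 88207032, plus strand) does not check the genotype, because the substitution leaves its transcript intact. It stood at 204, 224 and 192 CPM in wild type against at 168.5, 208 and 197 CPM in the mutant. The groups overlapped, and the difference of −0.11 ± 0.38 did not pass (adjusted p = 0.894). Its sign also depended on the processing, with 0.82 when the writing of the codes was a covariate. Of the genes behind the gate, Kit, the stem cell factor receptor, read 447, 572 and 254 against 121, 208 and 121.5 CPM. Ly6a, which encodes Sca-1, read 179, 114 and 299.7 against 728.5, 615 and 467 CPM. The libraries of both genes lay apart by group (as did those of 39.4% of all genes tested), Kit lower and Ly6a higher in the mutant, yet neither gene passed (−1.50 ± 0.56, adjusted p = 0.172; 1.61 ± 1.05, adjusted p = 0.408). Ptprc, the pan-leukocyte antigen CD45, was at 222, 247 and 170.3 against 156, 174 and 162 CPM. Of the lineage antigens the gate excludes, Cd3e and Cd8a had 0 counts in all 6 libraries, and Cd4 and Cd5 stayed below 1 CPM in each. Cd5 was above the floor in each wild-type library (36 counts in all) and had 4 counts in the mutant.

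Of 16482 genes tested, 321 (1.95%) passed, with 245 (1.49%) above and 76 (0.461%) below wild type. These shares are the background for the calls counted in each gene list below. The higher and the lower genes lay at different levels. The 245 higher genes had a median of 0.257 CPM in wild type against 8.77 CPM in the mutant, and 172 of them were under 1 CPM in wild type. The 76 lower genes had a median of 54.1 CPM in wild type against 21.6 CPM in the mutant, and 4 were under 1 CPM in the mutant. Rises were accordingly large (median 4.98 on the log2 scale) and falls modest (median −1.45), against a median of 0.07 over all genes tested. In bulk libraries such as these, fewer cells of a type and less RNA per cell cannot be told apart.

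**Figure D1:**
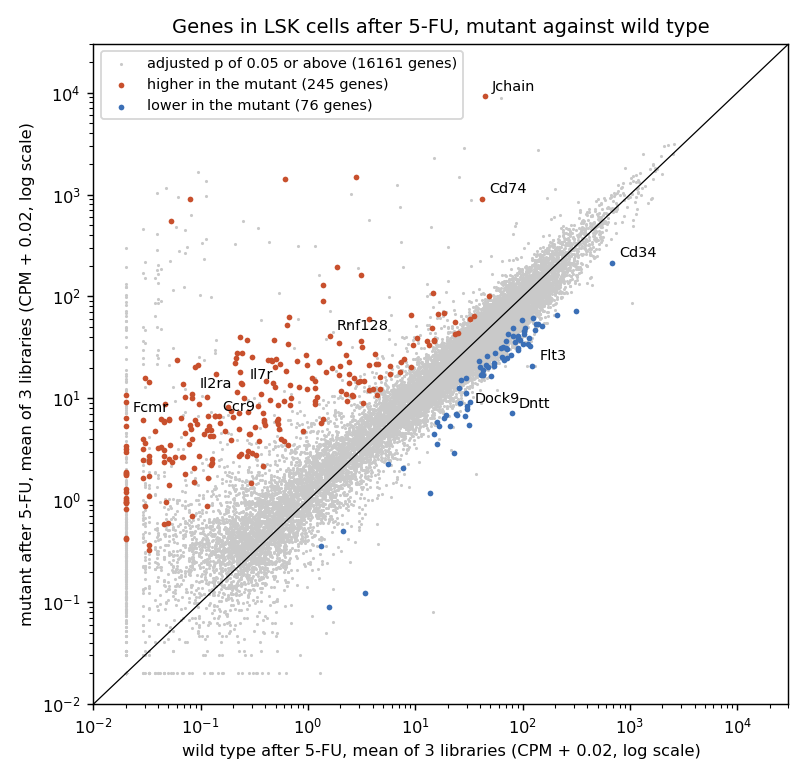
Mean level of each tested gene after 5-FU, wild type on the horizontal and mutant on the vertical axis (CPM + 0.02, both axes logarithmic, mean of 3 libraries per group), with the 245 higher genes in red, the 76 lower ones in blue and the diagonal as a line. The red points lie mostly at the left, where wild type is under 1 CPM, and the blue points mostly at 10 CPM or more in wild type.

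The PBS libraries show where these levels stand in mice without the drug. Of the higher genes, 236 had a wild-type 5-FU mean below both PBS means, which 49.4% of all genes tested had, and 112 had a mutant 5-FU mean above both PBS means (38.3% of all). Of the lower genes, 69 had a mutant 5-FU mean below both PBS means (44.9% of all) and 60 had a wild-type mean above both (40.1% of all). These positions are a description, since the 5-FU libraries that chose the genes enter them. Most higher genes were thus transcripts present under PBS in both genotypes and scarce in wild type after 5-FU.

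The calls rested on few libraries. Without wild-type replicate 1, 17 of the 321 still passed, and without wild-type replicate 2, 18 did. Leaving out wild-type replicate 3 or mutant replicate 1, 2 or 3 kept 128, 132, 149 and 171. Direction turned for 0 of the 321 in any of these 6 fits. The genes that passed in all 6 number 15, with Flt3, Dntt, Dock9 and Gria3 among the lower, and Cd300lf, Ccr9, Gpr183, Aldh3b1, Rnf128, Trbc2, Il7r, Plbd1, Pilra and Il2ra among the higher. Every other gene named below as called lost its call in at least 1 of them. With the log2 share of immunoglobulin counts as a covariate 0 of the 321 passed and 58 turned in direction (edgeR; 1591 genes of all had an unadjusted p under 0.05), whereas with the share itself 262 of them passed and 0 turned. In the fit with the log2 share Ccr9 had a difference of 6.48 ± 1.10 (adjusted p = 0.11), against 5.81 ± 0.70 without it, and Il7r one of 3.87 ± 1.07 (adjusted p = 0.431), against 6.00 ± 0.82, so neither passed there.

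Genes of the early lymphoid list divided into lower and higher ones. Of 19 early lymphoid genes, 4 were lower (Flt3, Dntt and Satb1 among them), 5 were higher and 10 did not pass, with a median of −0.64. Flt3, the receptor for FLT3 ligand that marks multipotent and lymphoid-primed progenitors, stood at 104, 104.5 and 162 CPM in wild type against 22.3, 22.7 and 17.8 CPM in the mutant. The mutant libraries lay within a narrow range, all at a fraction of the lowest wild-type library, with a difference of −2.56 ± 0.29 (adjusted p = 0.00107). Dntt, which adds nucleotides at antigen receptor junctions in early lymphoid cells, read 63.1, 31.7 and 143 against 8.73, 5.58 and 6.96 CPM. The wild-type libraries differed more among themselves than the mutant ones, and the groups were apart by −3.48 ± 0.57 (adjusted p = 0.00815). Satb1, a chromatin organizer of lymphoid progenitors, read 24.9, 26.6 and 38.5 against 14.2, 5.55 and 5.47 CPM. Mutant replicate 1 lay nearer to wild type than the other two, and the difference of −1.83 ± 0.35 (adjusted p = 0.0178) lost its call when the trend with transcript length was removed (−1.40, adjusted p = 0.0549).

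The 5 rises of the early lymphoid list were Il7r, Ccr9, Gpr183, Ikzf3 and Ighm. Il7r (chromosome 15, 9505788 to 9530176), the alpha chain of the interleukin 7 receptor, read 0.0607, 0.0798 and 0.532 CPM in wild type against 19.3, 4.66 and 17.5 CPM in the mutant. Ccr9, a chemokine receptor of lymphoid progenitors bound for the thymus, read 0.152, 0.0798 and 0.114 against 2.83, 3.87 and 13.4 CPM. Gpr183, an oxysterol receptor that guides lymphocyte migration, read 0.0911, 0.106 and 0.114 against 7.47, 2.66 and 4.34 CPM. All wild-type libraries were under 1 CPM for these 3 genes, and all mutant libraries were above 2 CPM. The differences were 6.00 ± 0.82 for Il7r, 5.81 ± 0.70 for Ccr9 and 5.48 ± 0.66 for Gpr183 (adjusted p = 0.00310, 0.00107 and 0.00107). The remaining rises of the list, named after their values were seen, were the transcription factor gene Ikzf3 (0.0607, 0.160 and 0 against 29.6, 25.3 and 9.36 CPM) and Ighm, the constant region of IgM (605, 150.4 and 852 against 97740, 64960 and 12610 CPM). Ikzf3 was highest in the mutant library with the largest immunoglobulin share, of which Ighm is itself a component. Flt3 and Dntt on one side and Il7r, Ccr9 and Gpr183 on the other were among the 15 genes that passed whichever library was left out. Which cells carried these falls and rises was not tested.

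The promoters of Flt3, Dntt, Il7r and Ccr9, early lymphoid genes that moved in opposite directions, are shown with matches to the letters GATA and Ets factors recognize. The substitution lies in the Gata2 enhancer and does not alter these windows, and a link between it and the matches was not tested. The windows are RefSeq promoter sequences (GRCm38.p6) from 250 bases before to 50 bases after the start, written 5′ to 3′ on the strand of the gene, with matches in capitals. Letters searched on both strands were AGATAA or AGATAG as well as TGATAA or TGATAG for GATA, and AGGAAG or else CGGAAG for Ets, and no GATA match overlaps an Ets match here.
Flt3 (chr5:147400440-147400739, minus strand): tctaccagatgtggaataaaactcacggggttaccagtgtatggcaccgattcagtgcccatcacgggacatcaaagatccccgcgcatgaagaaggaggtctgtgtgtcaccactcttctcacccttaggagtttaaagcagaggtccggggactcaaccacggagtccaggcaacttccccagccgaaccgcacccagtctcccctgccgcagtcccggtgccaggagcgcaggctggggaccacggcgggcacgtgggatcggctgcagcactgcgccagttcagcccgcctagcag
Dntt (chr19:41029025-41029324, plus strand): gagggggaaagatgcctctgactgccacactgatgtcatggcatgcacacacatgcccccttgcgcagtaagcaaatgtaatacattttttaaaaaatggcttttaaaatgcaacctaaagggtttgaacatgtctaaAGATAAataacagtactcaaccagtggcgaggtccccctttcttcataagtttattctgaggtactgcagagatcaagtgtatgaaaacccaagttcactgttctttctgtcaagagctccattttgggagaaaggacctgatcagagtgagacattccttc
Il7r (chr15:9529827-9530126, minus strand): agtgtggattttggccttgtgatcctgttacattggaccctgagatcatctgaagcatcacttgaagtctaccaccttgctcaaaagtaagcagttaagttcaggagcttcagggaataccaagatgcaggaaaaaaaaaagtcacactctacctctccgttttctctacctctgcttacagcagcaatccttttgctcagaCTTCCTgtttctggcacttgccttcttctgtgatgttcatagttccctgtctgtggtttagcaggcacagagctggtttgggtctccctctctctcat
Ccr9 (chr9:123766961-123767260, plus strand): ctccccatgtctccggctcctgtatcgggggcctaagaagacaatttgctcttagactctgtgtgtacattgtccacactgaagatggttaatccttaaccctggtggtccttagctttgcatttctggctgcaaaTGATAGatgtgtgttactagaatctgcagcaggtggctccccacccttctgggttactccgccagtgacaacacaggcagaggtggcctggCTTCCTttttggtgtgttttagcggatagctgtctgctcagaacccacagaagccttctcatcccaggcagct
The Flt3 window held 0 matches of either kind, the Dntt window 1 GATA match, the Il7r window 1 Ets match and the Ccr9 window 1 of each. Promoter windows were found for 172 of the higher and 61 of the lower genes. GATA letters stood in 29.9% of the windows of the higher genes and 23.9% of those of the lower genes, against 19.9% for all genes tested and 29.8% for all promoter windows. Ets letters stood in 55.0% and 44.3%, against 53.3% and 46.5%. A match is a run of letters and no evidence of binding, and the lack of one says only that these letters are not in this window.

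**Figure D2:**
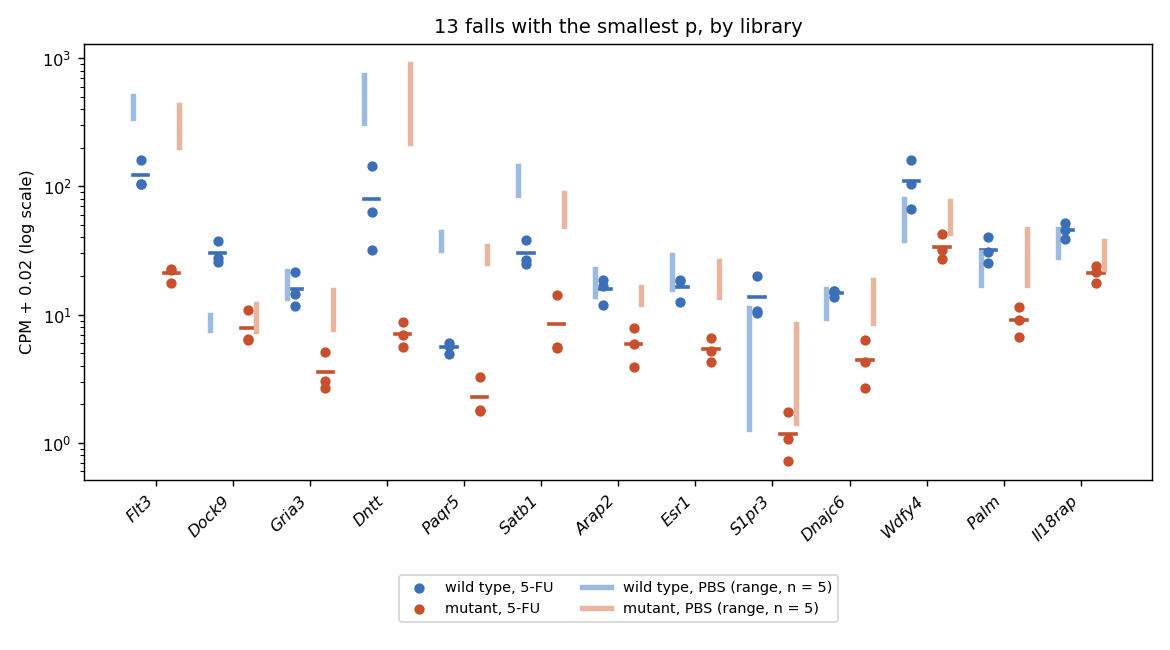
Level of 13 named lower genes in each library (CPM + 0.02, logarithmic axis), with points for the 3 wild-type (blue) and 3 mutant (red) 5-FU libraries, a dash for the mean of each group, and pale bars for the range of the 5 PBS libraries of each genotype. For Flt3 and Dntt the 5-FU points of both genotypes lie below both PBS ranges, with the mutant points lowest. For Dock9 the wild-type points lie above both PBS ranges.

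Receptors for growth factors and cytokines were lower or did not pass. Of 25 such genes 4 fell (Flt3, Il1r1, Pdgfrb and Csf2rb2), 0 rose and 21 did not pass. Over all genes tested, 0.461% fell and 1.49% rose. The median was −0.41, against 0.07 over all genes, and 20 of the 25 had a negative difference. Il1r1, the signalling receptor for interleukin 1, read 48.7, 55.5 and 48.3 against 15.6, 16.2 and 17.5 CPM, both groups being tight (−1.63 ± 0.34, adjusted p = 0.0260). Csf2rb2, the interleukin 3-specific beta chain, read 18.2, 18.6 and 36.3 against 7.12, 5.74 and 7.59 CPM (−1.84 ± 0.44, adjusted p = 0.0445), although its near copy Csf2rb can share reads with it. Pdgfrb, a platelet-derived growth factor receptor usually found on stromal cells, read 23.3, 22.8 and 22.04 against 0.787, 3.77 and 4.16 CPM (−2.96 ± 0.67, adjusted p = 0.0339). With the trend with transcript length removed, Il1r1 (−1.15, adjusted p = 0.0669) and Csf2rb2 (−1.44, 0.197) did not pass. Leaving out any 1 of the 6 libraries left 1 fall in this list, that of Flt3. The summed level of the 25 receptors was 1763, 1906 and 1870 CPM in wild type against 1086, 1192 and 1197 CPM in the mutant, so the groups did not overlap.

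Adhesion and cytoskeletal genes gave a few falls. Among 23 integrins, adhesion molecules and homing receptors, 2 fell (S1pr3 among them), 0 rose and 21 did not pass (median −0.22). S1pr3, a receptor for sphingosine 1-phosphate, read 10.3, 10.7 and 20.03 against 0.708, 1.05 and 1.73 CPM (−3.54 ± 0.70, adjusted p = 0.0215). The receptor dropped to about 1 CPM in each mutant library. Among 23 exchange factors, GTPase-activating proteins, small GTPases and myosins, Dock9 and Myh9 fell, 0 rose and 21 did not pass, and the list's median of −0.71 was lower than that of all genes (0.07). Dock9 (chromosome 14, 121542046 to 121797837), an activator of the GTPase CDC42, read 25.5, 37.8 and 27.4 against 6.49, 10.9 and 6.35 CPM (−1.93 ± 0.28, adjusted p = 0.00414). Myh9, the heavy chain of non-muscle myosin, read 107, 169 and 75.4 against 26.2, 38.9 and 32.6 CPM (−1.85 ± 0.45, adjusted p = 0.0452). In both genes wild-type replicate 2 was highest. The GTPases themselves did not differ in this way, with differences between −0.06 and 0.24 for Rac1, Rac2, Cdc42, Rhoa and Rhoh, genes looked up after their values were seen. Long transcripts were common among the lower genes, whose median effective length was 4391 bases against 2064 bases over all genes tested and 1775 bases for the higher genes. With the trend with length removed, 43 of the 76 lower and 191 of the 245 higher genes still passed, Flt3, Dntt, Dock9 and Myh9 among them.

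Other named falls spanned several functions. Gria3, a glutamate receptor subunit, read 11.6, 14.4 and 21.6 against 3.03, 5.07 and 2.64 CPM and passed in all 6 fits with a library left out (−2.14 ± 0.35, adjusted p = 0.00810). Esr1, the estrogen receptor alpha, read 18.5, 18.3 and 12.5 against 6.61, 5.17 and 4.25 CPM (−1.62 ± 0.31, adjusted p = 0.0187). Il18rap, the accessory chain of the interleukin 18 receptor, read 46.0, 51.9 and 39.0 against 17.7, 24.1 and 21.5 CPM (−1.11 ± 0.23, adjusted p = 0.0233). Libraries that do not overlap were a condition for naming these 3 genes. Wdfy4 was lower by a log2 difference of −1.71 ± 0.34, Palm, a membrane-bound phosphoprotein, by −1.81 ± 0.36, and Dnajc6, a co-chaperone in clathrin uncoating, by −1.74 ± 0.35. Arap2 (−1.43 ± 0.27) and Paqr5 (−1.29 ± 0.25) were also among the 15 falls with the smallest p. All adjusted p values of these genes lay between 0.00810 and 0.0233. Dnajc6 (adjusted p = 0.0892) and Il18rap (0.199) lost their call with the length trend removed.

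Of 28 HSC-associated genes, 1 rose, 1 fell and 26 did not pass, with a median of 0.29. At an unadjusted p under 0.05 (edgeR) 8 were higher and 2 lower, where 18.4% of all genes tested had such a p, 10.2% higher and 8.18% lower. DESeq2 called 5 higher and 1 lower at an adjusted p under 0.05. The fall was Cd34 (chromosome 1, 194938819 to 194961279), a sialomucin that most cycling mouse progenitors carry and long-term stem cells at rest lack. It read 746, 679.6 and 620.1 CPM in wild type against 137, 231 and 275 CPM in the mutant (−1.67 ± 0.38, adjusted p = 0.0358). All mutant libraries lay below the lowest wild-type library, with mutant replicate 1 lowest. The rise was Hoxb2, a homeobox gene, at 6.07, 6.41 and 9.23 against 21.3, 14.1 and 19.0 CPM (1.33 ± 0.32, adjusted p = 0.0448). Under PBS Hoxb2 averaged 1.80 and 6.81 CPM in wild type and mutant. That difference of 1.925 ± 0.26 also passed (edgeR, adjusted p = 0.011) and was larger than the one after 5-FU. The interaction of Hoxb2, −0.60 ± 0.40, did not pass (adjusted p = 0.599), so a change of its genotype difference with 5-FU was not shown. The calls of Cd34 and Hoxb2 after 5-FU ended when wild-type replicate 1 or 2 or any mutant replicate was left out. That of Cd34 also ended without wild-type replicate 3. Hlf, Mecom and Meis1, transcription factors of stem cells listed here though outside the naming rule, had differences of −0.55 ± 0.31, −0.35 ± 0.49 and −0.24 ± 0.30 with overlapping or nearly overlapping libraries.

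GATA2 works with TAL1, LMO2, LDB1, RUNX1 and ETS factors in a shared complex at blood cell enhancers. Of 15 genes for GATA2 and such partners, 0 passed in either direction, and at an unadjusted p under 0.05 (edgeR) 0 were higher and 2 lower, a share below the 18.4% of all genes; the median was −0.11. Runx1 had the smallest p, at 67.7, 69.7 and 72.2 against 39.5, 36.6 and 47.5 CPM (−0.76 ± 0.26, adjusted p = 0.139). Zfpm1, the GATA cofactor FOG1, came next at 90.4, 102 and 49.0 against 33.7, 40.9 and 56.3 CPM (−0.88 ± 0.38, adjusted p = 0.234). Runx1 libraries lay apart, whereas those of Zfpm1 overlapped. Summed over the 15 genes, the level was 1874, 1893 and 1934 CPM in wild type against 1819, 1714 and 1795 CPM in the mutant.

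The rises with the smallest p included Cd300lf, Rnf128 and Aldh3b1. Cd300lf (chromosome 11, 115116214 to 115133992), a lipid-binding receptor of myeloid cells, had the smallest p of all genes, at 0.304, 0.585 and 0.532 CPM in wild type against 9.56, 7.64 and 21.5 CPM in the mutant (4.76 ± 0.49, adjusted p = 0.000608). Rnf128, the ubiquitin ligase GRAIL known from T-cell anergy, read 1.94, 1.36 and 1.41 against 40.0, 21.1 and 62.8 CPM (4.71 ± 0.59, adjusted p = 0.00154). Aldh3b1, an aldehyde dehydrogenase, read 1.31, 1.20 and 1.86 against 18.4, 22.1 and 14.0 CPM (3.64 ± 0.44, adjusted p = 0.00107). The wild-type libraries were close to each other for these genes, and every mutant library was higher by several fold at least. Under PBS, Cd300lf averaged 16.2 CPM in wild type against 9.43 CPM in the mutant and Aldh3b1 36.0 and 30.3 CPM, so the mutant 5-FU libraries lay near the PBS levels. Rnf128 averaged 4.02 and 2.31 CPM under PBS, and the mutant 5-FU libraries exceeded every PBS library of either genotype.

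**Figure D3:**
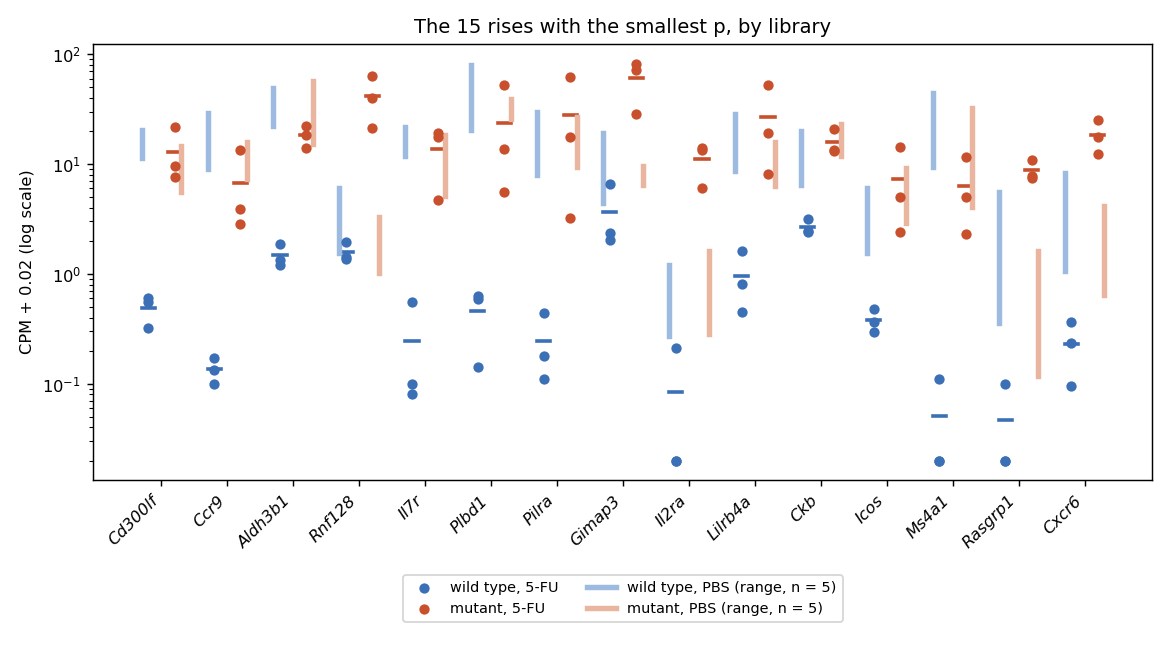
Level of the 15 named higher genes in each library (CPM + 0.02, logarithmic axis), drawn as for the lower genes: points for single 5-FU libraries, dashes for group means and pale bars for the PBS range of each genotype. For most of the 15 genes the wild-type 5-FU points lie below both PBS ranges and the mutant points inside or near them, while for Rnf128, Gimap3, Il2ra, Rasgrp1 and Cxcr6 the mutant points lie above both.

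Several other named rises are known from lymphocytes. Il2ra, the alpha chain of the interleukin 2 receptor, read 0, 0 and 0.190 against 13.9, 5.99 and 13.3 CPM (7.50 ± 1.12, adjusted p = 0.00593). Cxcr6, a chemokine receptor of tissue lymphocytes, read 0.213, 0.346 and 0.0760 against 17.4, 12.2 and 25.2 CPM (6.36 ± 1.01, adjusted p = 0.00810). Icos, a costimulatory receptor, read 0.273, 0.346 and 0.456 against 14.4, 2.38 and 4.98 CPM (4.32 ± 0.68, adjusted p = 0.00806). Mutant replicate 2 was the lowest of the mutant libraries in all 3. Gimap3, a GTPase of lymphocyte survival, read 2.34, 2.02 and 6.57 against 81.7, 28.4 and 71.9 CPM (4.06 ± 0.60, adjusted p = 0.00488). Rasgrp1, an activator of Ras downstream of antigen receptors, had 3 counts in wild type in all and read 0, 0.0798 and 0 against 7.44, 7.83 and 10.9 CPM, with a counting interval of the fold from 97.4 to 1387. Ckb, the brain-type creatine kinase, read 2.46, 2.40 and 3.15 against 13.1, 13.3 and 20.8 CPM (2.56 ± 0.39, adjusted p = 0.00631). Of these genes Il2ra kept its call in all 6 fits with a library left out.

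T-cell and NK-cell genes were partly raised, and no chain of the CD3 complex passed. Of 19 tested, 6 rose (Trbc1, Trbc2, Il2rb, Zap70, Cd2 and Ncr1), 0 fell and 13 did not pass. The median of the list was 4.20, and 3.03 with genes at 0 in wild type set to their lower bound. Trbc2, a constant region of the T-cell receptor beta locus, read 0.0607, 0 and 0.114 against 4.33, 1.78 and 4.43 CPM (5.89 ± 0.80, adjusted p = 0.00310). Il2rb, the beta chain of the receptors for interleukins 2 and 15, read 0.0304, 0 and 0.0380 against 6.37, 2.63 and 9.66 CPM, with a counting interval of the fold from 83.6 to 2511. Zap70, the kinase of T-cell receptor signalling, had 0 counts in wild type, and the mutant libraries held 1.06, 0.159 and 1.76 CPM, higher by a factor of at least 10.5. These levels were low in every mutant library, none above 10 CPM. Trbc1, a near copy of Trbc2 with which it can share reads, read 2.48, 0.793 and 1.58 CPM in the mutant and a single count in wild type. Of the CD3 chains, Cd3e had 0 counts in all 6 libraries and Cd3d reached at most 0.0393 CPM. Cd3g had 0 counts in all wild-type libraries and reached 0.669 CPM in the mutant. The summed level of the list did not set the groups apart, with 140 to 229 CPM in wild type against 122 to 210 CPM in the mutant. It was carried by Nkg7, a granule gene that myeloid progenitors also transcribe, which read 179, 124 and 204 against 56.4, 91.7 and 153 CPM. Without wild-type replicate 1 or 2, 1 gene of this list passed, Trbc2.

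Plasma-cell genes were higher in the mutant, and all 13 of those listed were highest in mutant replicate 1. Of 13 plasma-cell genes 8 rose, 0 fell and 5 did not pass, with a median of 6.04 and all 13 differences positive. Irf4, a transcription factor of plasma cells, read 0.577, 0.266 and 0.532 against 66.0, 35.2 and 10.9 CPM (6.35 ± 1.15, adjusted p = 0.0171). Sdc1, the plasma-cell antigen CD138, read 14.5, 12.8 and 16.2 against 165, 122 and 36.9 CPM (2.90 ± 0.62, adjusted p = 0.0278). Prdm1, which encodes BLIMP1, read 2.70, 2.47 and 1.94 against 34.4, 23.9 and 9.14 CPM (3.24 ± 0.77, adjusted p = 0.0413). In each, mutant replicate 1 was highest and replicate 3 lowest, the order of the immunoglobulin share (26.6, 16.9 and 5.69%). Slamf7, an adhesion receptor of plasma cells, followed the same order (94.8, 48.2 and 15.1 CPM in the mutant; 6.41 ± 1.297, adjusted p = 0.0274). With the log2 share as a covariate these 4 genes were below 0 (Irf4 −0.40, Sdc1 −0.97, Prdm1 −1.31, Slamf7 −1.06). Without any single wild-type replicate, 0 of the 13 passed. With the share itself as a covariate, 9 of the 13 passed as higher. Every mutant 5-FU library had a larger share than every wild-type one, so share and genotype cannot be told apart in these libraries. The covariate fits therefore cannot decide how far cells of this kind enter the other differences, which was not tested. The summed level of the list was 328, 274 and 550 CPM in wild type against 20030, 10640 and 2586 CPM in the mutant. Under PBS it ranged from 3357 to 65760 CPM in wild type and from 1751 to 75420 CPM in the mutant, so mutant replicate 3 after 5-FU lay below the wild-type PBS range.

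Mature B-cell genes did likewise in part: of 15, 6 rose, 0 fell and 9 did not pass, with a median of 4.10. Ms4a1, the B-cell antigen CD20, read 0.0911, 0 and 0 against 11.7, 4.95 and 2.28 CPM, with a counting interval of the fold from 64.5 to 922.5. Fcmr, the Fc receptor for IgM, had 0 counts in wild type, while mutant libraries read 6.41, 11.5 and 1.52 CPM (at least 68.0-fold higher). Blk, a kinase of B-cell receptor signalling, had 0 counts and 0.826, 4.19 and 0.638 CPM, at least 19.8-fold higher. The floor behind these bounds is 3 counts per library. For Fcmr and Blk the highest library was mutant replicate 2, unlike the plasma-cell genes, and without wild-type replicate 1 or 2 the list kept 1 and 0 calls. Among 13 pro-B and pre-B genes, 3 rose (Blnk and Cd79a among them), 0 fell and 10 did not pass. Blnk, an adaptor of B-cell receptor signalling, read 1.34, 1.22 and 3.27 against 59.1, 31.6 and 13.3 CPM (4.16 ± 0.73, adjusted p = 0.0105). The B-cell specification genes Ebf1 and Pax5 were near 0 in every library: Ebf1 read at most 1.298 CPM, and Pax5 had 0 counts in 5 of the 6. The surrogate light chain gene Igll1 read 0.0304, 0.0266 and 0 against 3.97, 0 and 0 CPM. Ebf1 and Igll1 were above 1 CPM only in mutant replicate 1, and without wild-type replicate 1 or 2 no pro-B or pre-B gene passed.

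Of 14 MHC class II and dendritic genes, Cd74, the invariant chain that guides class II molecules, rose (52.5, 21.4 and 52.0 against 1273, 894.5 and 562 CPM; 4.44 ± 0.95, adjusted p = 0.0283), 0 fell and 13 did not pass (median 1.56). Of 20 ER secretory and unfolded protein genes, 0 passed (11 higher and 0 lower at an unadjusted p under 0.05, against 10.2% and 8.18% of all genes; edgeR) and the median was 0.95. Atf4 (0.95 ± 0.25, adjusted p = 0.0567) and Edem1 (2.36 ± 0.63, adjusted p = 0.0625) had the smallest p. Edem1, which sorts misfolded glycoproteins for degradation, read 79.7, 75.8 and 85.9 against 656, 392 and 191 CPM, in the order of the immunoglobulin share.

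Most monocyte and macrophage genes were highest in another mutant library. Of 20, 3 rose (Fcgr4 and Adgre1 among them), 0 fell and 17 did not pass, with a median of 2.22 and 19 positive differences. Among the mutant libraries 15 of the 20 were highest in replicate 3, 3 in replicate 2 and 2 in replicate 1. The summed level did not follow that order, at 1298, 1004 and 1210 CPM in the mutant (296, 178 and 441 CPM in wild type), because Ly6c2, a monocyte surface antigen named after its values were seen, read 846, 414.9 and 195 CPM there. Fcgr4, an activating Fc receptor, read 0.425, 0.160 and 0.988 against 3.90, 12.6 and 48.2 CPM (5.38 ± 1.04, adjusted p = 0.0187). Adgre1, the macrophage antigen F4/80, read 0.729, 0.160 and 0.380 against 1.81, 5.04 and 22.1 CPM (4.50 ± 0.89, adjusted p = 0.0219). Both were highest in mutant replicate 3, the library with the smallest immunoglobulin share of the mutant libraries. Pilra, an inhibitory receptor of myeloid cells, was likewise highest in replicate 3, at 0.0911, 0.160 and 0.418 against 3.23, 17.6 and 62.1 CPM (6.98 ± 0.99, adjusted p = 0.00414). Plbd1, a phospholipase of myeloid granules, read 0.122, 0.612 and 0.570 against 5.51, 13.6 and 52.1 CPM (5.76 ± 0.82, adjusted p = 0.00414). Lilrb4a, an inhibitory receptor with a near copy, read 0.790, 0.426 and 1.60 against 8.06, 19.1 and 52.7 CPM (4.84 ± 0.73, adjusted p = 0.00597). Without wild-type replicate 1 or 2, 0 of the 20 list genes passed, whereas Pilra and Plbd1 kept their calls in all 6 such fits.

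**Figure D4:**
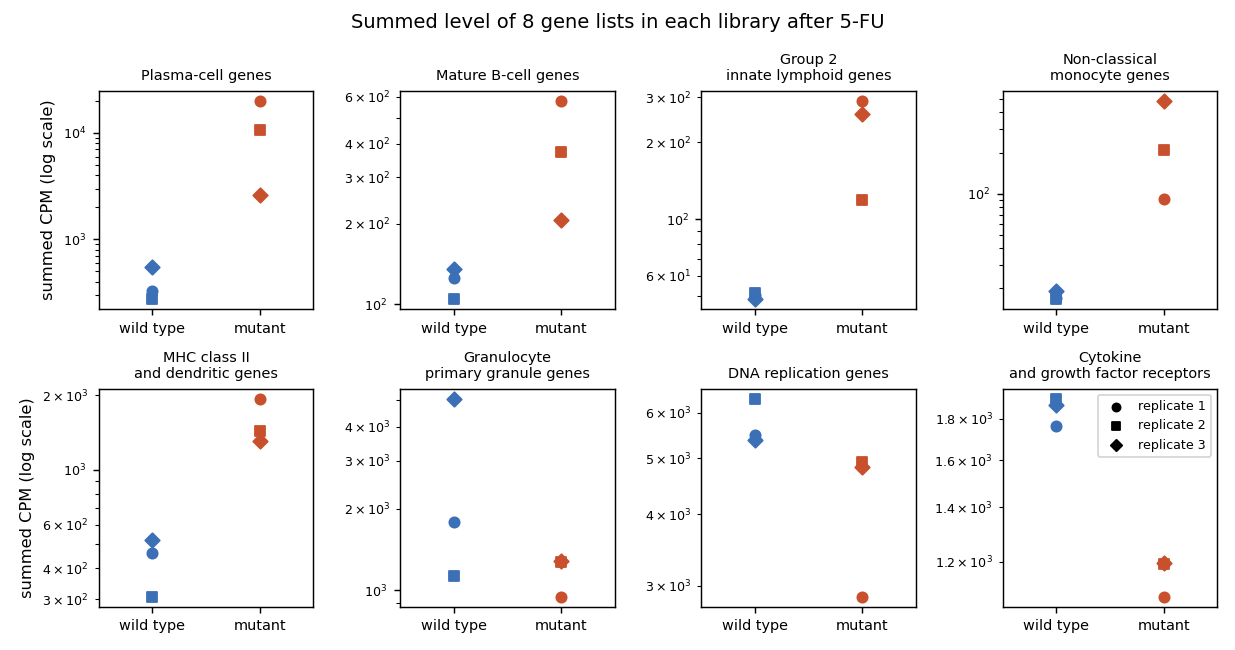
Summed level of 8 gene lists in each 5-FU library (CPM, logarithmic axes that differ between panels), with wild-type libraries in blue, mutant libraries in red and the replicate number given by the symbol. Plasma-cell and mature B-cell sums are highest in mutant replicate 1 and non-classical monocyte sums in mutant replicate 3. The receptor sums of the mutant (1086 to 1197 CPM) lie below those of wild type (1763 to 1906 CPM). The lists of innate lymphoid and non-classical monocyte genes were assembled after their values were seen, so their sums are a description only.

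No granulocyte gene of either granule list passed. Of 12 primary granule genes 0 passed (6 lower and 0 higher at an unadjusted p under 0.05, against 8.18% and 10.2% of all genes; edgeR), with a median of −1.72, the lowest of the lists fixed for this comparison. Cebpa, the transcription factor of granulocyte commitment, had the smallest p, at 6.95, 4.15 and 12.4 against 1.77, 1.33 and 2.22 CPM (−2.14 ± 0.54, adjusted p = 0.0533). Cst7, an inhibitor of lysosomal proteases, read 12.8, 7.34 and 47.2 against 2.83, 4.41 and 8.50 CPM. Wild-type replicate 3 was highest in both, and over the whole list its sum of 5071 CPM stood above 1785 and 1133 CPM in the other wild-type libraries and 947 to 1279 CPM in the mutant. Of 14 late granule genes 0 passed (4 higher and 1 lower at an unadjusted p under 0.05; edgeR). Ngp and Camp, contents of secondary granules, were near 0 outside mutant replicate 2, where they read 12.9 and 9.26 CPM.

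Among the other blood lineages, 2 of 15 eosinophil, basophil and mast-cell genes rose (Il5ra and Ear2), 0 fell and 13 did not pass. Il5ra, the interleukin 5 receptor chain, read 0.486, 0.585 and 0.456 against 20.1, 4.00 and 1.61 CPM, and Ear2, a ribonuclease of eosinophils and monocytes with near copies, 0.0304, 0.0532 and 0.0380 against 2.36, 13.9 and 55.6 CPM. Il5ra followed the order of the plasma-cell genes, and Ear2 that of Fcgr4 and Adgre1. Of 16 erythroid genes the alpha-globin genes Hba-a1 and Hba-a2, near copies of each other, rose, 0 fell and 14 did not pass (median 1.12). Hba-a1 read 0, 0.0532 and 0.152 against 52.5, 2.66 and 5.19 CPM (8.20 ± 1.86, adjusted p = 0.0430), so most of the signal lay in mutant replicate 1. Without that replicate, or any single wild-type replicate, 0 erythroid genes passed. Of 17 megakaryocyte and platelet genes 0 passed, with a median of −0.01, and Gp9, a subunit of the von Willebrand factor receptor, read 12.1, 9.71 and 14.2 against 23.3, 18.6 and 23.8 CPM (0.87 ± 0.28, adjusted p = 0.118).

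Non-blood lists gave single genes. Of 13 endothelial genes Stab2, a scavenger receptor of sinusoidal endothelium, rose from 0.334, 0.106 and 0.266 to 13.1, 10.1 and 7.20 CPM (5.41 ± 0.97, adjusted p = 0.0124), 0 fell and 12 did not pass (median 1.35). Of 6 marrow stromal genes tested Pdgfrb fell, 0 rose and 5 did not pass. Of 10 plasmacytoid dendritic genes 1 rose, Ccr9, already given, while Siglech, Klk1 and Cd209d had 0 counts in all 6 libraries.

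No gene of the cell cycle lists passed. Of 24 DNA replication genes 0 passed (0 higher and 2 lower at an unadjusted p under 0.05; edgeR), with a median of −0.46. Pole, the catalytic subunit of DNA polymerase epsilon, came nearest, at 83.0, 129.9 and 54.2 against 38.7, 37.96 and 31.4 CPM (−1.31 ± 0.33, adjusted p = 0.0509). Of 24 mitosis genes 0 passed (0 higher and 6 lower at an unadjusted p under 0.05, against 8.18% of all genes lower; edgeR), with a median of −0.37 and 19 negative differences. Top2a, which untangles replicated DNA, read 328.5, 457 and 264 against 111, 233 and 208 CPM (−0.93 ± 0.32, adjusted p = 0.147). Mutant replicate 1 was lowest there, as it was in the sums of both lists (2869 CPM against 4828 and 4922 CPM for replication). Of 16 cyclin and CDK genes 0 passed; Cdk6, a G1 kinase, read 246, 262 and 276 against 104, 117.5 and 206 CPM (−0.88 ± 0.31, adjusted p = 0.154), and Cdkn1c, the inhibitor p57, 11.7, 11.4 and 8.78 against 38.8, 16.0 and 13.5 CPM (1.10 ± 0.37, adjusted p = 0.140). These p values do not show that the groups cycle alike.

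In 17 genes of p53 and its targets 0 passed, 2 were higher and 0 lower at an unadjusted p under 0.05 (edgeR), and the median was 0.06, near that of all genes. Trp53inp1, a p53-induced stress protein, read 24.8, 19.6 and 23.6 against 129, 109 and 34.3 CPM (2.00 ± 0.62, adjusted p = 0.113). Bax, which opens the mitochondrial membrane in apoptosis, read 52.7, 41.4 and 70.8 against 89.2, 86.6 and 105 CPM (0.77 ± 0.34, adjusted p = 0.240). In both, the mutant libraries lay above the wild-type ones by less than the fit could separate. Of 20 interferon-stimulated genes 0 passed (6 higher and 0 lower at an unadjusted p under 0.05, against 10.2% and 8.18% of all genes; edgeR), with a median of 0.60. Ifit3, which binds viral RNA, read 3.19, 1.46 and 4.37 against 9.91, 7.80 and 9.87 CPM (1.62 ± 0.41, adjusted p = 0.0545). Isg15, a ubiquitin-like modifier, read 7.44, 3.81 and 11.4 against 22.9, 12.4 and 22.1 CPM (1.35 ± 0.47, adjusted p = 0.150).

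Ribosome biogenesis (20 genes, median −0.34; Utp20 −1.55 ± 0.42, Polr1a −0.99 ± 0.40), glycolysis and hypoxia (20 genes, median −0.17; Pdk1 −0.55 ± 0.25, Vegfa 1.60 ± 0.62), TGF-beta receptors and SMADs (17 genes, median −0.37; Tgfbr1 −0.75 ± 0.27, Tgfbr2 −0.79 ± 0.30) and heat-shock genes (16 genes, median −0.05) held 0 genes past the threshold. At an unadjusted p under 0.05 (edgeR) they had 1 higher and 2 lower, 1 and 1, 0 and 4, and 3 and 0 genes in that order, against 10.2% higher and 8.18% lower of all genes. The inducible chaperones of the last list had large but uneven values: Hspa1b, which has a near copy, read 1.94, 1.20 and 13.8 against 168, 52.99 and 74.1 CPM and Hspb1 0.0304, 0 and 0.152 against 4.13, 0.983 and 0.456 CPM. Of 22 immediate early genes, which respond rapidly to stimulation, Klf4 and Fos rose, 0 fell and 20 did not pass (median 1.84). Klf4 read 0.243, 0.106 and 0.266 against 2.71, 1.05 and 4.40 CPM (3.72 ± 0.69, adjusted p = 0.0156). Fos read 1.82, 3.19 and 4.33 against 445, 19.6 and 27.7 CPM (5.72 ± 1.34, adjusted p = 0.0448), with most of the signal in mutant replicate 1. Of the 22 genes, 18 were highest in mutant replicate 1 and 4, Klf4 among them, in replicate 3.

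**Figure D5:**
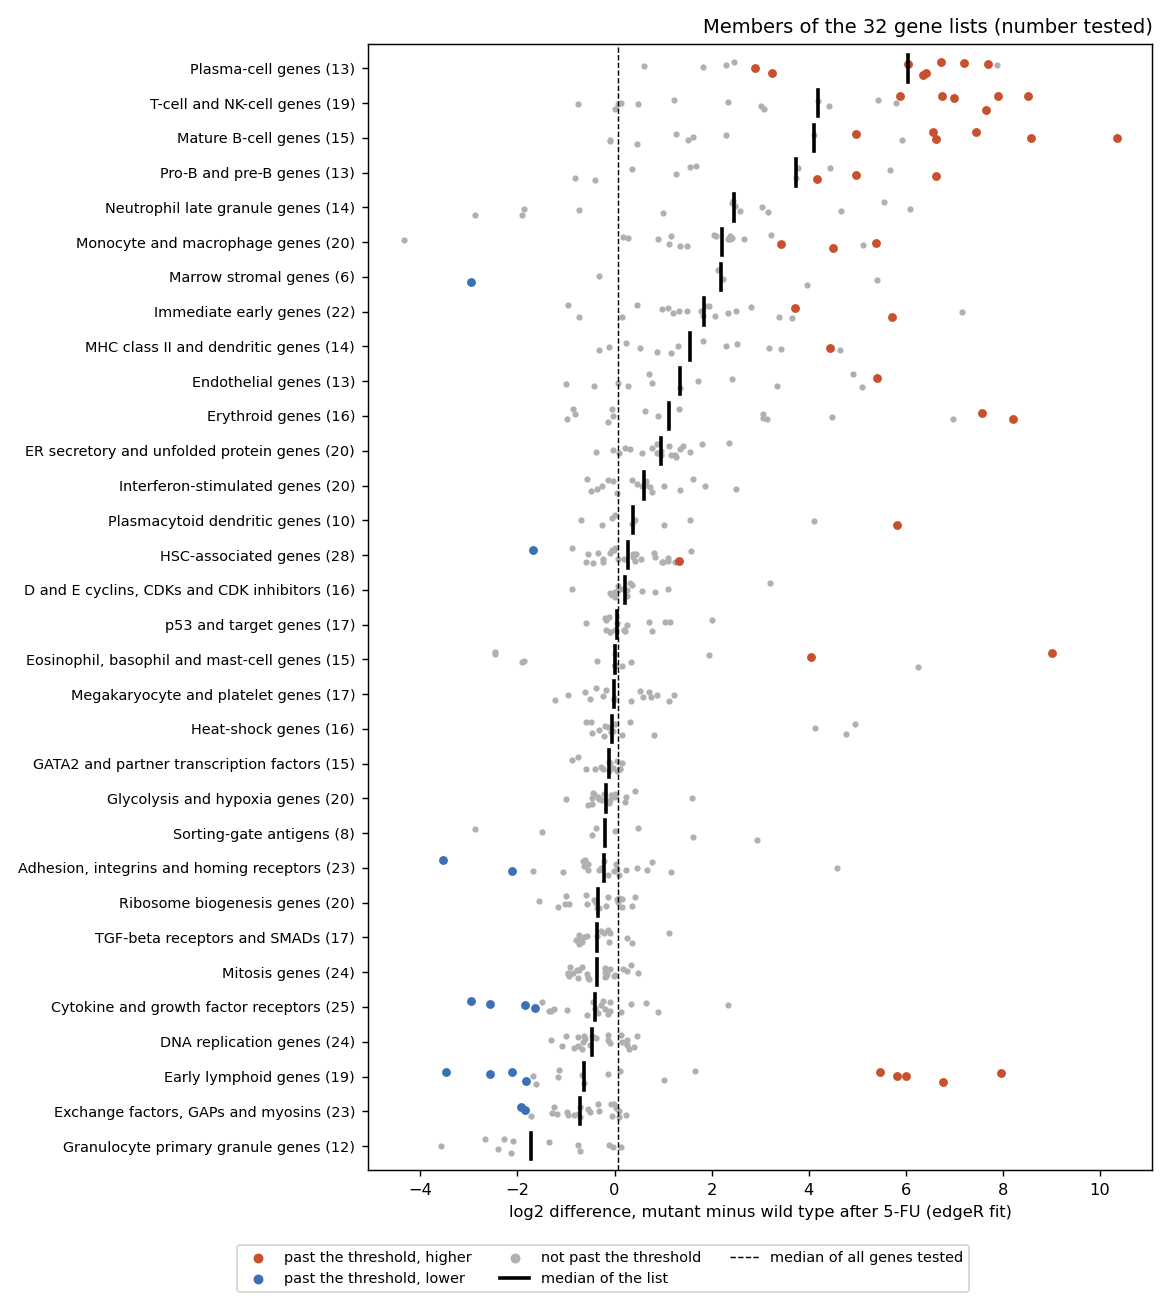
Difference between mutant and wild type after 5-FU (log2, horizontal axis) for each tested member of the 32 gene lists, ordered by the list median, with red and blue points for members past the threshold, grey for the others, a bar for the list median and a dashed line for the median of all genes (0.07). The early lymphoid list has called members on both sides, and plasma-cell, T-cell and B-cell lists have theirs at high positive values.

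The genotype difference after 5-FU was set against that under PBS with the interaction term, the difference of the 2 differences. It passed for 97 genes (0.589%), 92 higher (0.558%) and 5 lower (0.0303%), while under PBS alone 3 genes passed the genotype comparison (0.0182%). Because both comparisons use the same 5-FU libraries, their calls are not independent. Flt3 averaged 423 and 366 CPM under PBS in wild type and mutant, and its interaction was −2.35 ± 0.35 (adjusted p = 0.00798). Dntt, with 541 and 548 CPM under PBS, had −3.50 ± 0.67 (adjusted p = 0.0266). Dock9, with 8.44 and 9.09 CPM, had −2.04 ± 0.34 (adjusted p = 0.0135). For these 3 falls the genotypes were near each other under PBS and apart after 5-FU.

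The 6 interactions with the smallest p among genes whose higher group averaged 5 CPM or more were Cd300lf, Ccr9, Gpr183, Rnf128, Aldh3b1 and Il7r, all positive, with values from 3.90 ± 0.52 (Aldh3b1) to 6.61 ± 0.93 (Il7r). Il7r averaged 16.5 and 10.8 CPM under PBS in wild type and mutant (interaction adjusted p = 0.00534). Ccr9 averaged 19.4 and 11.5 CPM and had 6.57 ± 0.80 (adjusted p = 0.00267). In both genes the PBS means were of the same order in the 2 genotypes. Satb1 (−1.25 ± 0.43, adjusted p = 0.254), Cd34 (−1.53 ± 0.47, 0.185), S1pr3 (−3.12 ± 0.82, 0.106), Il1r1 (−1.33 ± 0.42, 0.205) and Gria3 (−1.55 ± 0.42, 0.118) did not pass the interaction, so for them a difference between treatments in the genotype effect was not shown. Without wild-type replicate 1 or 2 of the 5-FU groups, 11 and 15 genes passed it.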

How the data were processed

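RNA from sorted LSK cells was sequenced after purification with the RNeasy Micro kit and library preparation with the NuGEN Ovation Ultralow system, per the labels' protocols. Per the submitters' processing notes, RSEM 1.3.1, FastQC 0.11.2 and the genome mm10/GRCm38 were used. For the aligner, annotation release, read filters and use of strand, the answer is not given in the sources used here. The deposited tables hold for each gene an expected count, an RSEM estimate of fragments not scaled to the library, and TPM, a length- and library-scaled value made by the authors, per the file headers. Of 53342 genes, 99.8% had IDs found in GENCODE M21 (GRCm38), which gave the coordinates.

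Expected counts were rounded to whole numbers and filtered with filterByExpr (minimum count 10). Libraries were scaled with TMM and tested with the quasi-likelihood F test of edgeR 4.0.16 (R 4.3.3, robust, 1 mean per group, all 16 samples, 12 residual degrees of freedom). P values were adjusted by Benjamini and Hochberg over the 16482 genes tested, and SE is the log2 difference divided by the square root of F. Totals of 20169355 to 28883365 counts set the floor of 3 counts at 0.0798 to 0.118 CPM. Counting intervals of folds (95%, exact binomial) and floors cover counting error only.

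Named genes were Gata2, Kit and Ly6a, and the 15 rises and 15 falls with the smallest p among genes past the threshold with a log2 difference of at least 1, no overlap between libraries and a higher group averaging 5 CPM or more. Left out of this naming were immunoglobulin genes, gene models without a name, Y-linked genes and Xist. Up to 4 called members of each of 32 gene lists (or the 2 with the smallest p where 0 passed) and the 6 interactions with the smallest p were added. The comparison, the lists and the tests were chosen with earlier results of these data known, and 2 further lists were assembled after their values were seen. Some genes that met the naming rule or belong to the lists are not reported here, and counts include them. The fit was also run on simulated counts in which only genes well above the floor were changed, so that run does not cover genes near it.

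Alternatives were RLE size factors, removal of the immunoglobulin genes, a filter from 3 counts, no filter, DESeq2 1.42.0, limma-voom with quality weights and limma-trend on log2(TPM + 1) (limma 3.58.1), the 5-FU libraries alone, a replicate block, the writing of the sample codes or the immunoglobulin share as a covariate, and leaving out each 5-FU library. Chosen after seeing the data were the log2 immunoglobulin share, the 5-FU libraries alone with the block, and an offset that removes each library's lowess trend with effective transcript length.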

Additional observations from a re-analysis of the deposited data

Results flagged for a closer look

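For 31 named genes the genotype difference after 5-FU differed from that under PBS by the test of the difference itself (edgeR interaction, adjusted p under 0.05). Of all genes tested, 0.589% passed it. Named genes were chosen from the same 5-FU libraries, 6 of them by this test, so their count is no sign of enrichment. Values are the log2 difference after 5-FU minus that under PBS. The negative values were those of Flt3 (−2.35), Dock9 (−2.04) and Dntt (−3.50), genes lower in the mutant after 5-FU. Among early lymphoid and lymphocyte receptor genes, positive values were found for Ccr9 (6.57), Gpr183 (6.09), Il7r (6.61), Il2ra (6.83), Il2rb (9.89), Cxcr6 (7.35), Icos (3.85), Rasgrp1 (9.30) and Gimap3 (4.34). T-cell genes with positive values were Trbc1 (8.74), Trbc2 (7.11) and Zap70 (7.73). B-lineage genes were Ms4a1 (7.99), Fcmr (10.36), Blk (9.07), Blnk (4.40) and Irf4 (6.85). Myeloid genes were Cd300lf (5.54), Plbd1 (6.32), Pilra (7.14), Lilrb4a (5.52), Fcgr4 (6.23) and Adgre1 (5.29). The others were Rnf128 (5.50), Aldh3b1 (3.90), Klf4 (4.27), Ckb (2.27) and Il5ra (4.92). Il5ra belongs to the eosinophil, basophil and mast-cell list but followed the order of the plasma-cell genes across the mutant libraries. In wild type after 5-FU Fcmr, Blk and Zap70 had 0 counts, and Trbc1, Il2rb, Ms4a1 and Rasgrp1 had 1 to 3, so their fitted values depend on the prior count of the fit and are no bounds. Without wild-type 5-FU replicate 1 or 2, 11 and 15 genes of all passed this test, and without wild-type replicate 3, 41.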

How the results depend on the processing

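The number of genes called after 5-FU stayed within 1.5 times of 321 with RLE size factors (232 higher, 89 lower), without immunoglobulin genes, with either change of filter, with the immunoglobulin share as a covariate (345) and with the length trend removed (303). It was 2080 in the 5-FU libraries alone (1064 higher, 1016 lower), 1308 by DESeq2 (826 higher, 482 lower), 5100 by limma-voom with quality weights (2925 higher, 2175 lower), 158 on TPM, 42 with the writing of the codes and 0 with the log2 immunoglobulin share (chosen after seeing the data). Leaving out 1 library gave 17 to 206. The interaction passed for 582, 723, 56, 27 and 0 genes by DESeq2, voom, TPM, code writing and the log2 share, for 193 with the share itself, and for 11 to 84 with 1 library left out. On TPM the median of all genes moved by −0.67.

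Replicate numbers were not taken as pairs in the main fit. Deviations of same-numbered libraries correlated at 0.056, 0.115 and 0.020, and those of the other pairs at −0.089 to 0.024. Mutant replicates 1 and 2 correlated best with the wild-type library of their own number, and mutant replicate 3 with wild-type replicate 1 (0.024). These values do not settle whether the numbers pair the samples. The replicate block gave 1524 genes (836 higher, 688 lower) and 383 for the interaction, and 3738 in the 5-FU libraries alone (chosen after seeing the data).

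Direction turned with the log2 immunoglobulin share for Blnk (−0.21), Irf4 (−0.40), Slamf7 (−1.06), Sdc1 (−0.97), Cd74 (−1.20), Il5ra (−0.86), Cd79a (−0.80), Prdm1 (−1.31), Myh9 (0.01), Pole (0.36), Atf4 (−0.08), Edem1 (−1.72), Utp20 (0.55), Trp53inp1 (−1.63), Pola1 (0.79), Runx1 (0.26), Top2a (0.53), Isg15 (−0.47), Cenpf (0.77), Kit (1.43), Tgfbr2 (0.61), Polr1a (1.03), Zfpm1 (1.01), Bax (−0.68), Pdk1 (0.10), Ly6a (−4.30) and Gata2 (1.78). It turned on TPM for Gp9 (−0.03) and Bax (−0.12), with code writing for Ly6a (−1.07) and Gata2 (0.82), with the share itself for Gata2 (0.46), and with the length trend removed for Gata2 (0.00). For each of these the cause was not tested. Zap70, Ngp, Cd5 and Camp were filtered out in the fits of the 5-FU libraries alone. With 3 libraries a group, genes near the floor in wild type have folds limited by counting.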

Other observations

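Among the called rises stood genes that textbooks give for group 2 innate lymphoid cells, tissue lymphocytes without an antigen receptor. The list of 22 such genes was put together after their values were seen, so its counts are a description and get no test: of 20 tested, 11 were past the threshold as higher (1.49% of all genes tested were), 0 as lower and 9 did not pass. Klrg1, an inhibitory receptor, read 0, 0 and 0.0760 against 4.09, 1.81 and 11.6 CPM (counting interval of the fold 80.7 to 2426). Arg1, the enzyme arginase, read 0, 0.0798 and 0.0760 against 12.2, 6.44 and 11.9 CPM (7.49 ± 1.39, adjusted p = 0.0155). Ccr8, a chemokine receptor, had 0 counts in wild type, while mutant libraries read 5.82, 1.11 and 2.64 CPM (at least 33.6-fold higher). In all 3 genes mutant replicate 2 was lowest. Bcl11b, a transcription factor of T cells and these cells, read 0, 0 and 0.0380 against 2.36, 1.55 and 3.46 CPM (counting interval 42.7 to 9532). Id2, which blocks B-cell factors, read 10.1, 9.07 and 8.28 against 89.7, 27.0 and 80.2 CPM (2.84 ± 0.64, adjusted p = 0.0337). The defining regulators did not pass: Gata3 read 19.9, 21.8 and 19.9 against 40.0, 32.1 and 33.5 CPM (0.78 ± 0.20, adjusted p = 0.0534) and Rora 7.87, 8.17 and 5.40 against 25.7, 8.44 and 11.4 CPM (adjusted p = 0.186). The cytokine gene Il13 reached at most 0.152 CPM. Over the list the summed level was 50.6, 51.2 and 48.6 CPM in wild type and 290.4, 119 and 258 CPM in the mutant, and 2 genes passed without wild-type replicate 1 or 2.

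A second list chosen in the same way holds 15 genes of non-classical, patrolling monocytes, of which 10 were past the threshold as higher, 0 as lower and 5 did not pass. Treml4, an innate receptor, read 0.122, 0.213 and 0.228 against 2.44, 13.9 and 50.8 CPM (6.87 ± 1.37, adjusted p = 0.0220). Adgre4, an adhesion receptor, read 0.698, 0.160 and 0.456 against 3.82, 18.4 and 48.2 CPM (5.74 ± 1.13, adjusted p = 0.0216). Cd300e, an activating receptor, read 0.0304, 0 and 0 against 1.73, 13.5 and 31.7 CPM, and its wild-type level rests on 1 count. Each was highest in mutant replicate 3. The summed level was 17.1, 16.7 and 19.2 CPM in wild type and 91.3, 212 and 487 CPM in the mutant, and 0 genes passed without wild-type replicate 1 or 2, 1 without wild-type replicate 3 and 3 without mutant replicate 3. These mutant sums lay within or above the PBS ranges of 81.3 to 401 CPM in wild type and 88.8 to 324 CPM in the mutant.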
